A study of Mus musculus with 2 samples.

Results

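In the cytosol of lipid A-treated mouse macrophages, 83 protein-coding genes had at least 40% of their transcript level in isoforms annotated as targets of nonsense-mediated decay (NMD). The members were chosen by 2 values from both replicates. A gene needed a TPM of at least 5 (TPM is a level scaled to the library and corrected for transcript length) and an NMD share of at least 40% of its TPM, summed over its NMD transcripts. The rule was met by 1.55% of the 5368 genes that had a protein-coding transcript and reached TPM 5 in both replicates, called the eligible genes below. It was met by 5.02% of the 1654 eligible genes with an annotated NMD transcript. The annotation held 21901 genes with a protein-coding transcript in all. Since levels and shares chose the members, both are given as descriptions and no test was run on them.

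The cells were primary macrophages grown from bone marrow of C57BL/6J mice. They were exposed to 100 ng/ml lipid A for 12 h, washed out for 12 h, and given 100 ng/ml lipid A again for 75 min. Lipid A is the lipid anchor of bacterial lipopolysaccharide, and macrophages sense it through TLR4. Total RNA of the cytosolic fraction was sequenced after depletion of ribosomal RNA in 2 biological replicates of this 1 group. The labels list 1 donor code for both replicates, possibly a code for the strain, and neither sex nor age is given. No untreated, singly treated or nuclear library was analysed here, so the values describe a state and not a response.

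NMD is a surveillance pathway that degrades messages on which translation ends too early. During splicing an exon junction complex is left just upstream of each exon junction, and a ribosome that stops well before the last junction leaves such a complex in place downstream. The helicase Upf1 then joins the terminating ribosome, is phosphorylated by the kinase Smg1, and recruits effectors such as Smg5 and Smg6, which start cleavage, decapping and deadenylation. Isoforms of this kind arise when an exon is skipped out of frame, when an exon that carries a stop codon is included, or when a splice site shifts. Many genes of splicing regulators use such isoforms to limit their own protein. The NMD label is an annotation of a transcript's structure, and the decay of these transcripts was not measured.

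The stop codons that define the class are shown for 9 members. Each line gives 13 bases before the annotated stop of the NMD transcript with the highest share of its gene (the leading one), the stop codon in capitals, and 14 bases after it, in the 5′ to 3′ direction of the transcript, from the GENCODE M21 transcripts (mm10).
Rgs1-204: gccaaagactttaTAAggggaactcttgta
Ppia-201: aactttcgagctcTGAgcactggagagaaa
Oasl2-205: atctacgagactcTGAtaagaagtaagggc
Mx1-205: caaactgccttcgTAAagattttatcaaat
Ostf1-205: actcctgagccatTAGgaaagctcacacct
Rnf114-203: atccgggcccatgTGAcgtcatgttccaaa
Il4ra-205: taatgaaaatctgTGActgagtgaccttgg
Ndufs4-202: gatatcacaacttTAActggtgttccagaa
Tardbp-228: tcaagaaagatctTAAaactggtcactcga

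The 3 stop codons all occurred. Over 82 members, with Sra1 not analysed here, TGA was used by 50, TAA by 23 and TAG by 9. In mm10 the stop of Rgs1-204 lies at chr1:144248605-144248607 on the minus strand, that of Ppia-201 at chr11:6418241-6418243 on the plus strand, and that of Il4ra-205 at chr7:125571951-125571953 on the plus strand.

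Junctions show where the NMD transcript and the coding transcript part. In each line below the 15 bases in lower case end the exon that both transcripts share, and the 15 capitals are the bases joined to it, for 5 members that stand for a skipped exon, an added exon or a small shift.
Oasl2-205 (NMD): attaaggtggtgaagGACCTATTTCCAGAG
Oasl2-201 (coding): attaaggtggtgaagGGAGGCTCCTCGGGA
Rnf114-203 (NMD): gccctgcggacacgtTTCATCCTATCTAAG
Rnf114-201 (coding): gccctgcggacacgtCTTTTGCTCTGCATG
Ndufs4-202 (NMD): tagagttccatccagGATATCACAACTTTA
Ndufs4-201 (coding): tagagttccatccagGTTGTTGAGCACATC
Il4ra-205 (NMD): tcacgtggtacaaccCAAGTAATGAAAATC
Il4ra-201 (coding): tcacgtggtacaaccACTTCCAGCTGCCCC
Zranb2-208 (NMD): acagatgtggtcgagACAACTGAGGCCAAG
Zranb2-203 (coding): acagatgtggtcgagAAAAGACAACTGAGG

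In Rgs1 the NMD transcript used an acceptor 49 bases upstream of the coding one, and the stop codon TAA printed above lies in the added bases. In Zranb2 the acceptor lay 5 bases downstream, so the bases AAAAG that open the coding exon are absent from the NMD transcript. In Oasl2 an exon of 289 bases was skipped, in Rnf114 one of 151 bases and in Ndufs4 one of 79 bases. None of these lengths is a multiple of 3. The start codon of Oasl2-205 is marked as not found in the annotation.

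Expected counts over annotated genes summed to 64187226 in replicate 1 and 49429893 in replicate 2, so replicate 1 carries the smaller counting error. Genes with a protein-coding transcript held 29.9% and 26.2% of all TPM in replicates 1 and 2, which keeps the TPM of any one gene low. All 10 macrophage markers (Lyz2, Adgre1, Csf1r, Cd68 and others) were at TPM 10 or more in both replicates, and their sum was 5231 and 5762 TPM. Markers of other lineages were summed over lists of 4 to 6 genes. Erythroid markers summed to 0.02 and 0.01 TPM, stromal and endothelial ones to 0.60 and 1.30, B cell ones to 1.07 and 1.86, neutrophil ones to 5.48 and 11.8, and T and natural killer cell ones to 16.8 and 14.1. Of that last sum nearly all was Cd4 (16.7 and 14.1 TPM), while Klrb1c and Ncr1 were listed at 0 in both replicates, as were the neutrophil marker Ly6g and the erythroid marker Hbb-bs. Their part in the results below was not tested.

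Across the 83 members the median NMD share was 57.7% in replicate 1 and 55.3% in replicate 2 (56.5 ± 1.74%, SD, n = 2 replicates). The median share of protein-coding transcripts was 36.5% and 36.6%, and that of retained-intron transcripts was 0.41% and 0.66%. In the other 1334 eligible genes with an NMD share above 0 the median NMD share was 2.17% and 2.05%. The median gene level of the members was 15.3 and 12.9 TPM (14.1 ± 1.68, SD, n = 2). Over all eligible genes it was 15.8 and 14.2 TPM (14.96 ± 1.13, SD, n = 2), which is higher in both libraries. In the other genes with an NMD share above 0 it was 14.8 and 13.6 TPM, below the members in replicate 1 only. Of the members, 55 were at TPM 10 or more in both replicates and 8 at TPM 100 or more.

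The NMD share lay above the protein-coding share in both replicates for 66 members and below it in both for 10. It exceeded 50% in both replicates for 59 members and 80% for 5. These 5 were Hyi, Mrpl32, Mrps14, Zdhhc3 and Hnrnpu. NMD transcripts held 1.80% and 1.60% of the TPM of all genes with a protein-coding transcript in replicates 1 and 2. Members supplied 45.9% and 42.1% of that NMD level, and the 5 highest members in turn supplied 51.9% and 42.7% of the members' part.

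**Figure D1:**
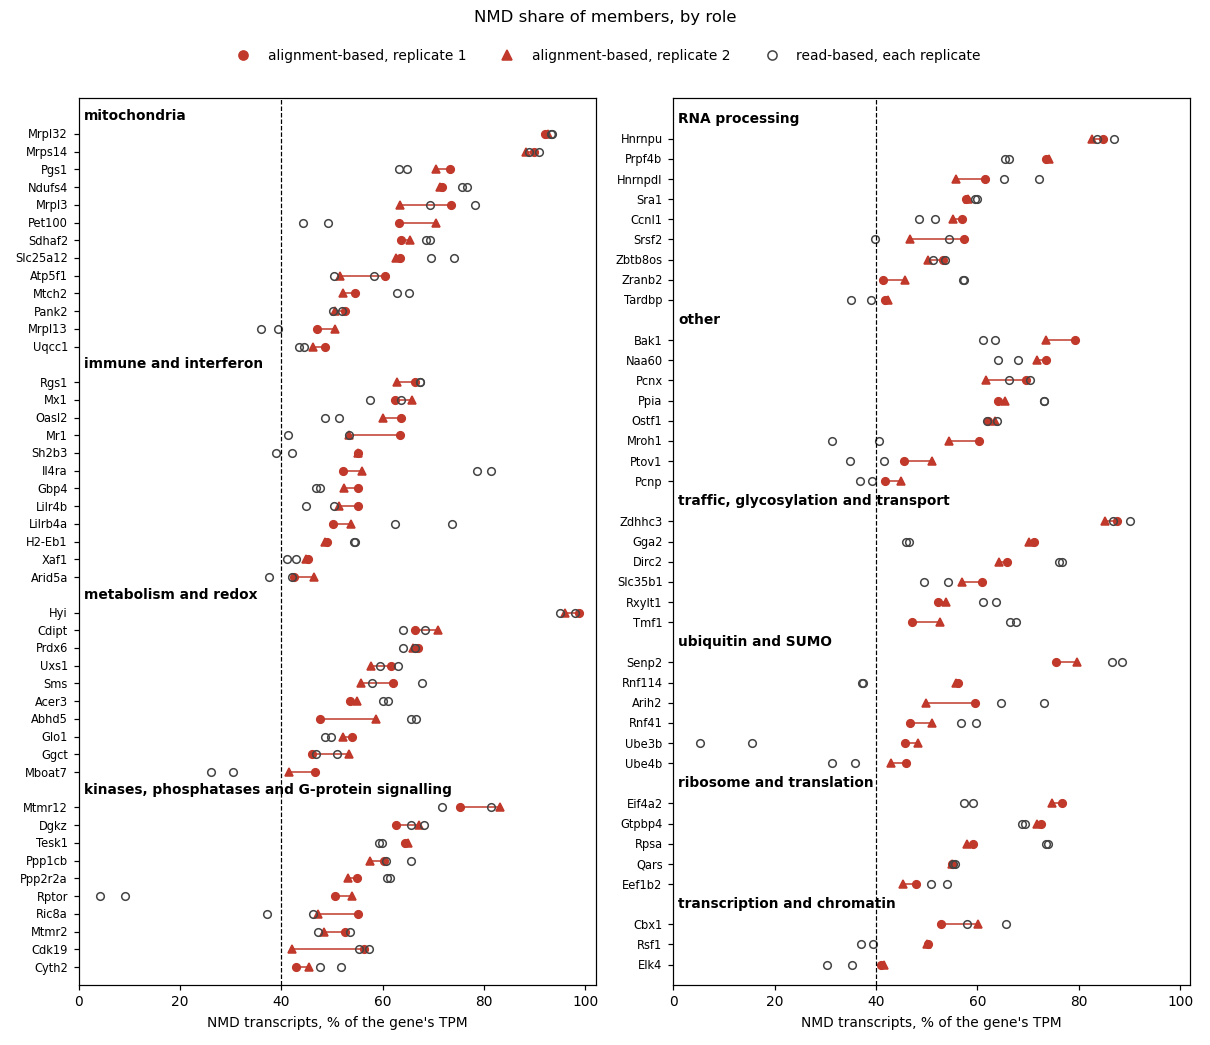
NMD share of 82 of the 83 members in percent of the gene's TPM (horizontal axis), grouped by role. Filled circles are replicate 1 and filled triangles replicate 2 from the alignment-based tables, open circles are both replicates of the read-based tables, and the dashed line marks the 40% of the rule. Most pairs of filled symbols lie close together, while Rptor and Ube3b have open circles far below the line.

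Immune and interferon genes made up 12 members, with mean NMD shares between 44.5% and 64.6% and mean levels between 6.07 and 495 TPM. Rgs1, which ends G-protein signalling from chemokine receptors, was the highest member at 720.1 TPM in replicate 1 and 270.1 TPM in replicate 2. It was also the member whose replicates lay farthest apart. Its NMD share was 66.4% and 62.7%, its retained-intron share 30.5% and 32.7%, and its protein-coding share only 3.12% and 4.6%. The shares of the isoforms were close in both replicates while the level of the gene was not. The deposited interval of Rgs1-204 was 467 to 476 TPM in replicate 1 and 163 to 168 TPM in replicate 2, against 20.6 to 21.8 and 9.82 to 10.8 TPM for Rgs1-208, the leading coding transcript. Rgs1-204 has 1328 bases and Rgs1-208 has 3841, and the annotation gives Rgs1-204 its weakest support level, 5. The gene lies at chr1:144244673-144249057 on the minus strand.

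Lilr4b and Lilrb4a are neighbouring paralogs of the leukocyte immunoglobulin-like receptor family on chromosome 10. Lilr4b was at 327 TPM in replicate 1 and 201 TPM in replicate 2, with NMD shares of 55.0% and 51.4%. Lilrb4a was at 215 and 129 TPM, with NMD shares of 50.2% and 53.7%. Both were higher in replicate 1. Of the 31-base words of Lilrb4a-205, 98.0% also occur in transcripts of other genes, and for Lilr4b-204 the figure was 45.5%. The leading NMD transcript of neither gene holds a 31-base word of its own within its gene, so the division of reads between these genes and isoforms is uncertain.

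Among interferon-stimulated genes, 3 of the 53 eligible genes of the list were members (5.66%, beside 1.55% of all eligible genes). Oasl2, an oligoadenylate synthetase-like antiviral protein, was at 152 TPM in replicate 1 and 154 TPM in replicate 2 (153 ± 1.07, SD, n = 2), with NMD shares of 63.7% and 60.0%. Mx1, a dynamin-like antiviral GTPase, was at 121 and 160 TPM, with NMD shares of 62.5% and 65.7%. Most inbred laboratory mice, C57BL/6 among them, carry an inherited deletion of coding exons in Mx1. The leading NMD transcript Mx1-205 has 11 exons and a reading frame of 927 bases, and the leading coding transcript Mx1-202 has 9 exons and 1191 bases. Xaf1, which antagonises the apoptosis inhibitor XIAP, was at 97.7 and 76.4 TPM, with NMD shares of 45.3% and 44.8%. By expected counts, which are not divided by transcript length, its NMD share was 9.89% and 9.39%, and Xaf1-201 has 415 bases against 2597 in its leading coding transcript.

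Il4ra, the alpha chain of the receptor for the cytokines interleukin-4 and interleukin-13, ran against most members, with 20.7 TPM in replicate 1 and 38.6 TPM in replicate 2. Its NMD share was 52.1% and 55.9%. Il4ra-205 carries 114 bases that lie outside the exons of the coding transcripts, with its stop codon within them. In mouse a message with an extra exon that ends the reading frame before the membrane-spanning part is known to encode a soluble form of this receptor. The other 5 members of this class were named after their values were seen. They were the guanylate-binding protein Gbp4, the class II beta chain H2-Eb1, the antigen-presenting molecule Mr1, the RNA-binding protein Arid5a and the signalling adaptor Sh2b3. H2-Eb1 had retained-intron shares of 26.6% and 28.4% beside NMD shares of 49.0% and 48.6%.

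Genes of RNA processing gave 9 members, with mean NMD shares from 42.1% to 83.7% and mean levels from 7.495 to 70.3 TPM. Hnrnpu, a nuclear scaffold and splicing protein, was at 73.5 TPM in replicate 1 and 67.1 TPM in replicate 2, with NMD shares of 84.8% and 82.6%. Its leading NMD transcript, Hnrnpu-206, has a reading frame of 2379 bases against 2400 in Hnrnpu-201, and the annotation tags it as a read-through transcript, the only such tag among the members. Hnrnpdl, a relative of the hnRNP D protein, was at 20.8 and 18.6 TPM, with NMD shares of 61.4% and 55.9%. The NMD and coding transcripts of Hnrnpdl encode the same frame of 1260 bases, and Hnrnpdl-201 has 442 bases outside the exons of coding transcripts.

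Srsf2, a serine/arginine-rich splicing activator, was at 37.8 TPM in replicate 1 and 38.0 TPM in replicate 2. Its level was nearly equal in both replicates, but its NMD share was 57.4% and 46.7%, or 26.7% and 18.5% by expected counts. Srsf2-204 has 620 bases, with no base and no junction that the coding transcripts lack, and 71.2% of its 31-base words occur in transcripts of other genes. Tardbp, which encodes the RNA-binding protein TDP-43, was at 22.7 and 24.3 TPM, with NMD shares of 41.7% and 42.5%. In the read-based tables its NMD shares were 35.0% and 38.9%. Tardbp was named after its values were seen, as were the cyclin Ccnl1, a partner of splicing kinases, Zbtb8os (archease, a factor of the RNA ligase complex) and Sra1, while Zranb2 and Prpf4b belong to the spliceosome list. Prpf4b, a kinase of the spliceosome, was at 6.94 and 8.05 TPM, with NMD shares of 73.6% and 74.2%. Zranb2, a zinc finger splicing factor, was at 12.6 and 10.9 TPM, with NMD shares of 41.4% and 45.7%.

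Ribosome and translation genes gave 6 members, with mean NMD shares between 46.7% and 75.7% and a median level of 52.3 TPM. Rpsa, a protein of the small ribosomal subunit, was at 129 TPM in replicate 1 and 88.0 TPM in replicate 2, with NMD shares of 59.1% and 57.9%. It was 1 of 2 members among the 83 eligible ribosomal protein genes (2.41%, beside 1.55% of all eligible genes), whose median level was 191 and 130 TPM. Of the 31-base words of Rpsa-206, 78.5% occur in transcripts of other genes, so its level is uncertain where processed copies share reads. Eef1b2, an exchange factor for the elongation factor that delivers aminoacyl-tRNA, was at 83.7 and 54.4 TPM, with NMD shares of 48.0% and 45.4%. Eif4a2, an RNA helicase of translation initiation, was at 37.7 and 33.4 TPM, with NMD shares of 76.6% and 74.7%. The glutaminyl-tRNA synthetase Qars and the ribosome assembly GTPase Gtpbp4, named after their values were seen, complete the class.

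Mitochondrial genes gave 13 members, with mean NMD shares from 47.3% to 92.3% and mean levels from 7.56 to 57.2 TPM. Roles were given to members only, so the size of this and every other class has no share of eligible genes beside it. Mrpl32 and Mrps14, proteins of the mitochondrial ribosome, came next after Hyi in NMD share. Mrpl32 was at 19.3 TPM in replicate 1 and 13.3 TPM in replicate 2, with NMD shares of 92.1% and 92.6%. Mrps14 was at 17.4 and 13.3 TPM, with NMD shares of 89.9% and 88.3%. In both, the leading NMD transcript is short (658 and 674 bases) and the leading coding transcript long (3013 and 2999 bases) with 3 exons in each of the 4 transcripts. Atp5f1, a subunit of the ATP synthase, was at 61.8 and 52.6 TPM, with NMD shares of 60.4% and 51.5%. Ndufs4, a subunit of complex I, was at 20.5 and 18.3 TPM, with NMD shares of 71.6% and 71.2%. Atp5f1 and Ndufs4 were the 2 members among 78 eligible genes of the respiratory chain list (2.56%, beside 1.55% of all eligible genes). Mrpl3, Mrpl13, Sdhaf2, Pet100, Uqcc1, Mtch2, Slc25a12, Pgs1 and Pank2 complete the class and were named after their values were seen. Among them Sdhaf2, Pet100 and Uqcc1 are assembly factors of respiratory complexes, and Slc25a12 is an aspartate and glutamate carrier.

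Metabolism and redox genes gave 10 members. Hyi, annotated as a hydroxypyruvate isomerase, had the highest NMD share of all, 98.7% in replicate 1 and 96.0% in replicate 2, at 10.7 and 7.42 TPM. Its protein-coding transcripts were at 0.05 TPM in replicate 1 and were listed at 0 in replicate 2. Hyi-202 skips 2 exons that hold 82 bases in all. Prdx6, a peroxiredoxin that reduces phospholipid hydroperoxides, was at 20.6 and 12.5 TPM, with NMD shares of 66.9% and 66.0%. Mboat7, an acyltransferase of phosphatidylinositol, was at 5.82 and 6.85 TPM, with NMD shares of 46.6% and 41.5%. Cdipt, Acer3, Abhd5, Glo1, Ggct, Uxs1 and Sms were named after their values were seen.

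The remaining classes held genes of signalling, traffic, ubiquitin, chromatin and other roles. Kinase, phosphatase and G-protein genes gave 10 members between 5.59 and 21.9 TPM on average. Mtmr12, a catalytically inactive myotubularin, was at 6.89 TPM in replicate 1 and 5.06 TPM in replicate 2, with NMD shares of 75.2% and 83.1%. Rptor, the raptor subunit of the growth-regulating kinase complex mTORC1, was at 5.46 and 6.50 TPM, with NMD shares of 50.6% and 54.0%. Ppp1cb, Ppp2r2a, Dgkz, Cdk19, Tesk1, Ric8a, Cyth2 and Mtmr2 were named after their values were seen.

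Ubiquitin and SUMO genes gave 6 members. Rnf114, a ubiquitin ligase, was at 63.1 TPM in replicate 1 and 50.4 TPM in replicate 2, with NMD shares of 56.2% and 55.9%. In the read-based tables its NMD shares were 37.4% and 37.2%. Senp2, a SUMO protease, was at 14.2 and 11.5 TPM, with NMD shares of 75.5% and 79.7%. Ube3b and Ube4b, ubiquitin ligases, had NMD shares of 45.6% and 48.2% and of 46.0% and 42.9%. None of the 6 stands in the ubiquitin and proteasome list, of whose 67 eligible genes 0 were members. Rnf41 and Arih2 were named after their values were seen.

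Traffic, glycosylation and transport genes gave 6 members, led in share by the palmitoyltransferase Zdhhc3. Zdhhc3 was at 11.2 TPM in replicate 1 and 10.02 TPM in replicate 2, with NMD shares of 87.5% and 85.3%. Its leading NMD transcript holds 4463 bases outside the exons of its coding transcripts, the most of any member. Gga2, Tmf1, Slc35b1, Dirc2 and Rxylt1 complete the class. Transcription and chromatin genes were Elk4, Cbx1 and Rsf1, of which the ETS factor Elk4 was at 15.4 and 12.6 TPM. Apart from Zdhhc3 and Elk4, these genes were named after their values were seen.

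The other 8 members included highly expressed genes. Ppia, the prolyl isomerase cyclophilin A, was at 509.6 TPM in replicate 1 and 398 TPM in replicate 2 (454 ± 79.2, SD, n = 2), with NMD shares of 64.1% and 65.4%. Its NMD transcript Ppia-201 differs from coding exons by 5 bases and 1 junction, and 87.3% of its 31-base words occur in transcripts of other genes, so its level is uncertain where processed copies share reads. Ostf1, an adaptor protein first described in osteoclast formation, was at 134 and 109.98 TPM, with NMD shares of 62.1% and 63.4%. Bak1, a pore-forming effector of apoptosis, was at 57.4 and 49.2 TPM, with NMD shares of 79.3% and 73.5%. Naa60, Mroh1, Pcnp, Ptov1 and Pcnx were named after their values were seen.

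**Figure D2:**
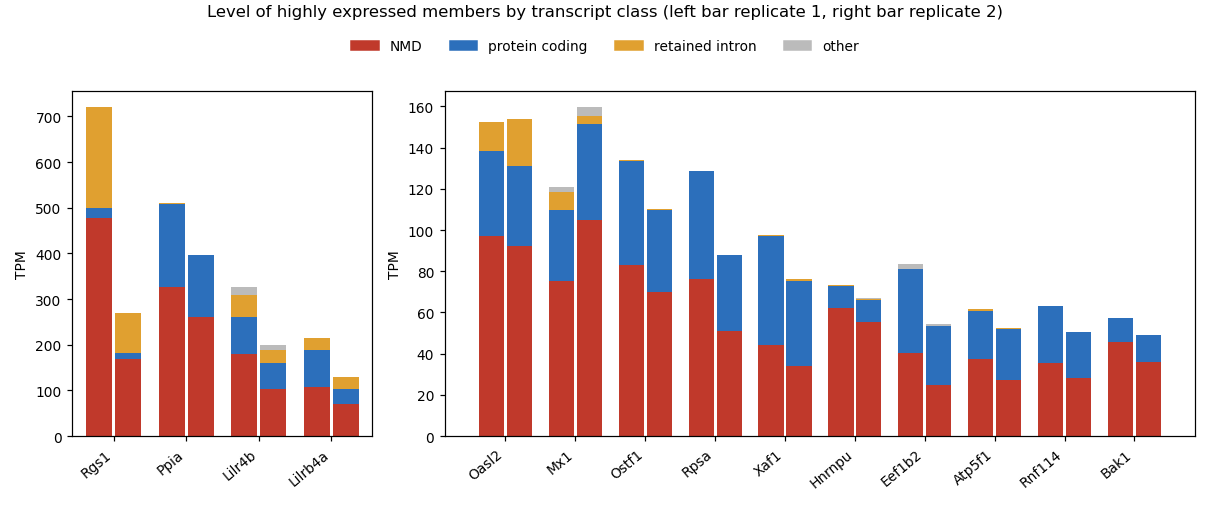
Level in TPM of 14 of the 15 highest members, split by annotated transcript class, with replicate 1 as the left bar and replicate 2 as the right bar of each pair, on a separate linear axis for the 4 with the highest bars. NMD transcripts make up the largest part of most bars, Xaf1 and Eef1b2 have a larger protein-coding part, and Rgs1 has almost no protein-coding part.

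The distance from the stop codon to the last junction is part of what the NMD label stands for, and the rule used that label, so this distance describes the annotation and is no separate evidence. In 82 of the 83 members its stop codon lay at least 50 nt before the last exon junction, the distance at which NMD is usually described, against 1327 of the 1334 other genes with an NMD share above 0. The exception was Xaf1-201, where the distance was 29 nt. The median distance was 341 nt in members and 327.5 nt in the other genes, with a range of 29 to 4237 nt in members.

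Median lengths differed, with no test run on them. The leading NMD transcript had a median of 1964 bases in members and 1046.5 bases in the other genes, while the leading coding transcript had 2752 and 2677 bases. The NMD transcript was the shorter of the pair in 58 members (69.9%) and in 81.3% of the other genes. Its reading frame had a median of 270 bases in members, against 968 bases in their coding transcripts. In the other genes these medians were 273 and 1317 bases. The annotation gave its highest support level, 1, to the leading NMD transcript of 36 members (43.4%) and of 28.0% of the other genes, and the start codon was marked as not found in 18.1% and 27.6%.

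In 50 members (60.2%) the leading NMD transcript held no base outside the exons of coding transcripts, against 40.7% of the other genes. More than 100 bases lay outside them in 16 members, among them Zdhhc3 with 4463, Cbx1 with 1385 and Elk4 with 1049. At least 1 exon junction absent from the coding transcripts was present in 76 of the 83 members, and exactly 1 in 57. Of the 1334 other genes, 1269 had at least 1 and 800 exactly 1. In 6 members the leading NMD transcript had neither a base nor a junction of its own, against 26 of the 1334 other genes. The 6 were Srsf2, Eif4a2, Naa60, Mtmr2, Slc35b1 and Mboat7. For these 6 the share rests on how reads over shared sequence were divided. In 16 members, these 6 included, the leading NMD transcript held no 31-base word of its own within its gene. The median over members was 29 such words, so the division of shared reads bears on more than these 6.

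Skipping of an exon gave the NMD junction in 26 members (31.3%), against 29.6% of the other genes. Of 52 members where the NMD and the coding junction leave the same donor, 24 skip at least 1 exon and 22 skip exactly 1. Here any exon of the leading coding transcript inside the intron of the NMD junction counts as skipped. The 26 above also needed both ends of that intron to be used by coding junctions. Zdhhc3 (6012 bases) and Tmf1 (157 bases) are thus among the 22 and not among the 26. In 20 of those 22 the skipped exon was not a multiple of 3 bases long. Examples are the exons of 196 bases in Xaf1, 157 in Prdx6, 164 in Tardbp and 59 in Senp2, where the start codon of Senp2-205 is marked as not found. A skip out of frame is part of what the NMD label stands for, so this count describes the annotation. It was not made over the other genes.

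The stop codon lay inside exon sequence of coding transcripts in 60 members (72.3%) and in 58.5% of the other genes. It lay outside it in 11 members (13.3%) and in 35.4% of the other genes. These 11 were Rgs1, Ostf1, Atp5f1, Il4ra, Cdipt, Ccnl1, Dgkz, Sdhaf2, Gtpbp4, Rxylt1 and Rsf1. In the last 12 members (14.5%, against 6.15% of the other genes) the stop codon was that of a coding transcript with a junction downstream of it. Hnrnpdl, Prpf4b, Naa60 and Gga2 are of this kind, with reading frames of 1260, 3021, 726 and 1809 bases that equal those of their coding partners. These 4 transcripts carry the whole reading frame.

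**Figure D3:**
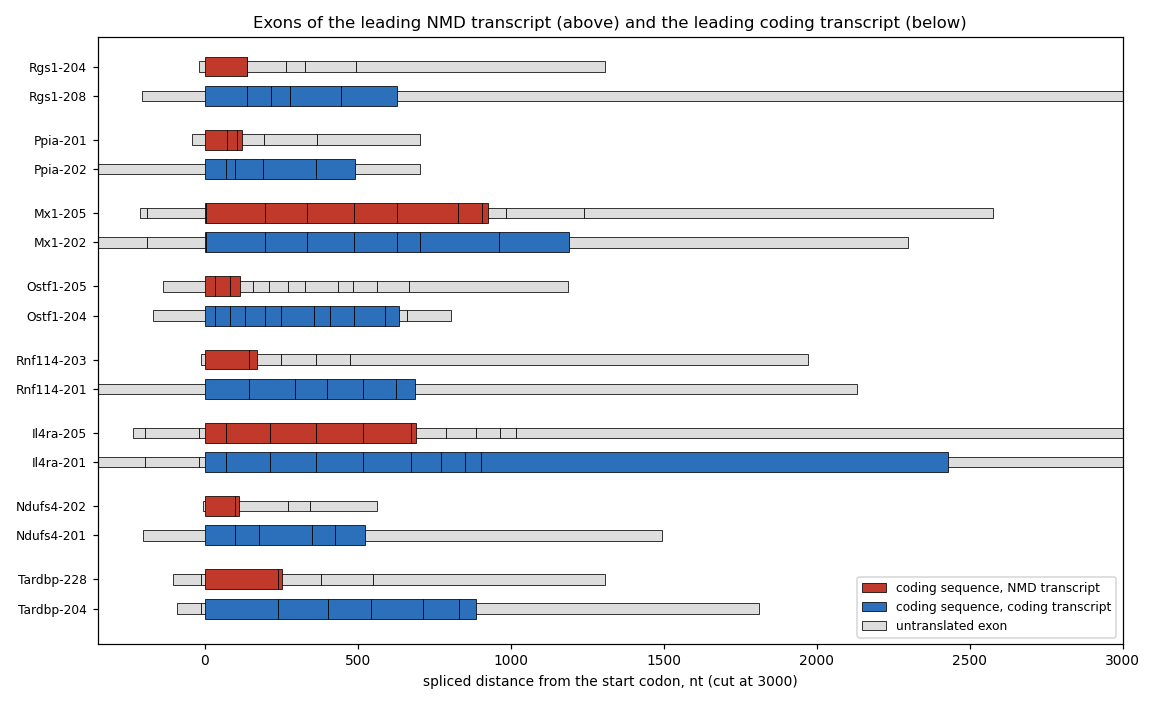
Spliced exons of the leading NMD transcript (upper bar, red reading frame) and the leading coding transcript (lower bar, blue reading frame) of 8 members, placed by distance from the shared start codon in nt, with grey untranslated exons and thin lines at exon junctions. Each red frame ends before junctions that follow it, as in Rgs1, where it spans 138 bases against 627 in blue.

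The read-based tables gave a second division of the same reads among isoforms, so they are no independent replicate. In them an NMD share of at least 40% in both replicates was reached by 67 of the 83 members and by 103 of the 5368 eligible genes (1.92%). Another 10 members were under 40% in both replicates and 6 on either side. The median read-based share of the members was 58.3% and 59.3%. The read-based share was higher than the alignment-based one in 40 members and lower in 43, with a median difference of -0.82 percentage points, and 32 members differed by less than 5 points. In 10 members it was more than 10 points higher and in 16 more than 10 points lower.

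The lowest read-based shares among members belonged to Rptor, Ube3b, Mboat7, Elk4 and Ube4b. Rptor had read-based shares of 9.16% in replicate 1 and 4.15% in replicate 2, beside 50.6% and 54.0% from the alignment-based tables. Ube3b had 5.22% and 15.6%, Mboat7 had 30.5% and 26.1%, Elk4 had 30.3% and 35.2%, and Ube4b had 35.9% and 31.4%. For these 5 genes the side of 40% depends on the tables used. The same holds for Rnf114, Tardbp, Pcnp, Mrpl13 and Rsf1, whose read-based shares were also under 40% in both replicates. In the other direction Il4ra had read-based shares of 78.7% and 81.3%, beside 52.1% and 55.9%. Rgs1 was nearly equal in both, with read-based shares of 67.3% in each replicate.

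Taken from expected counts in place of TPM, the NMD share reached 40% in both replicates in 56 of the 83 members. TPM divides by transcript length, so a short NMD transcript holds a larger share of TPM than of counts. The share of TPM was over 1.5 times the share of counts in 18 members, and the reverse held in 0. Mroh1 had 5.25% and 4.37% of its counts in NMD transcripts, beside 60.3% and 54.5% of its TPM, and its leading NMD and coding transcripts have 388 and 5268 bases. Ube4b had 7.64% and 7.04% of its counts, Ggct 13.27% and 15.03%, and Acer3 14.9% and 17.1%.

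The deposited intervals of TPM, whose level is not stated, belong to the alignment-based tables only. They compare the leading transcripts within a library. The interval of the NMD transcript lay wholly above that of the coding transcript in both replicates in 53 members and wholly below it in 4 (Tardbp, Elk4, Arih2 and Ube3b). In the other 26 neither held in both replicates. In Elk4, for example, Elk4-207 held all of the gene's NMD level. Its interval was 5.87 to 6.64 TPM in replicate 1, against 7.41 to 7.94 TPM for the coding transcript Elk4-202. Rptor was among the 53, although its read-based NMD shares were 9.16% and 4.15%. Separate intervals therefore do not cover the difference between the quantifications.

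**Figure D4:**
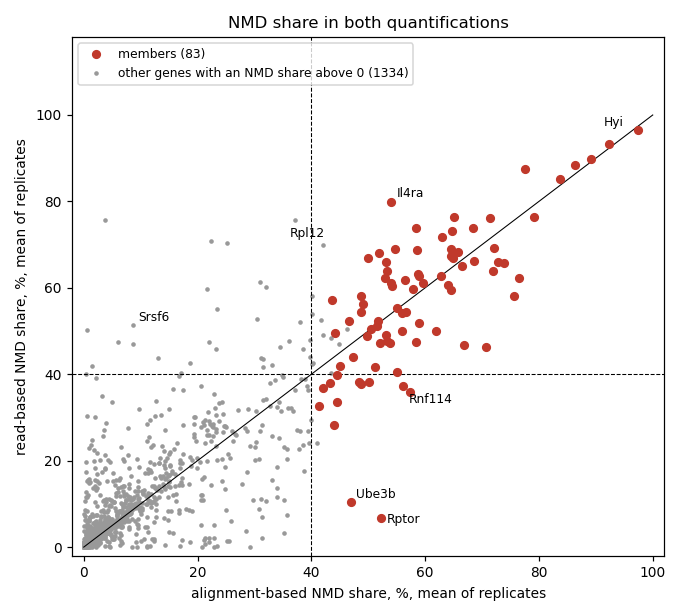
Alignment-based NMD share (horizontal axis) and read-based NMD share (vertical axis) in percent, each the mean of both replicates, for the 83 members in red and the 1334 other eligible genes with an NMD share above 0 in grey. Dashed lines mark 40% and the solid line equality. Rptor and Ube3b lie far below the line, Il4ra above it, and some grey points such as Rpl12 lie above 40% on the vertical axis.

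The NMD shares of most members lay close together in the replicates, but the rule itself asked for the minimum share in both. Genes that met it in replicate 1 only (14) or in replicate 2 only (14) had been left out. The closeness is thus partly set by the rule, and it was not compared with that of other genes. The absolute difference in NMD share had a median of 2.85 points over the members, it was under 5 points in 63 and over 10 points in 5. These 5 were Srsf2 (57.4% and 46.7% in replicates 1 and 2), Mrpl3 (73.5% and 63.4%), Abhd5 (47.7% and 58.7%), Mr1 (63.5% and 53.4%) and Cdk19 (56.3% and 42.0%). The lowest NMD expected count of a member was 68.2, in Ggct, and the medians were 1418 and 1054 in replicates 1 and 2.

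Gene levels are compared as ratios, a scale unlike that of the shares. Of the members, 63 were higher in replicate 1 and 20 in replicate 2, beside 70.9% of all eligible genes higher in replicate 1. Only Rgs1 differed at least 2-fold on the TPM + 1 scale (log2 ratio of replicate 1 over replicate 2, 1.41), where 48 of the 5368 eligible genes did (0.894%), 38 of them in the direction of Rgs1 (0.708%). The next largest ratios were -0.87 for Il4ra, 0.73 for Lilrb4a, 0.70 for Lilr4b and 0.67 for Prdx6. With 1 library on each side these ratios have no replicate check. The level of Rgs1 is given as 495 ± 318 TPM (SD, n = 2), since 1 replicate was far above the other.

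**Figure D5:**
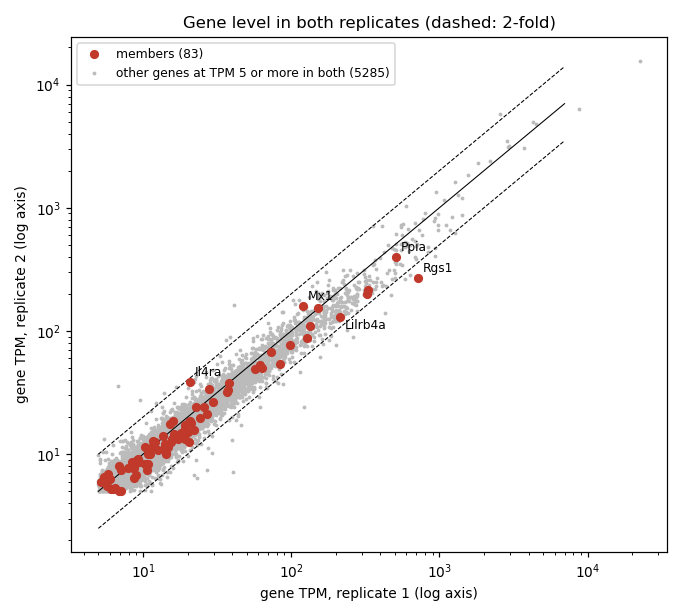
Gene level in TPM in replicate 1 (horizontal log axis) and replicate 2 (vertical log axis) for the 83 members in red and the 5285 other eligible genes in grey, with the solid line at equality and dashed lines at 2-fold. The members follow the grey cloud, Rgs1 lies beyond the lower dashed line, and Il4ra lies above the solid line.

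The NMD machinery itself was detected at low to moderate level. All 17 genes of the list of NMD factors were at TPM 1 or more in both replicates, with a median of 5.09 and 5.10 TPM. Upf1 was at 7.33 TPM in replicate 1 and 9.26 TPM in replicate 2, Upf2 at 4.17 and 4.40, Upf3a at 6.12 and 4.89, and Upf3b, the lowest by its mean, at 1.93 and 1.59. The kinase Smg1 was at 7.74 and 11.3 TPM, and its partners Smg8 and Smg9 at 4.16 and 4.92 and at 8.22 and 8.39. The effectors Smg5 and Smg6 were at 5.09 and 6.10 and at 1.85 and 2.13 TPM. Of the list, 4 genes of the list were at 10 or more in both replicates.

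Among these were the decapping adaptor Pnrc2 (26.9 and 22.1 TPM) and the translation release factors Etf1 (50 and 37.3 TPM) and Gspt1 (18.4 in each replicate). Lower values were found for Dhx34 at 4.82 and 5.10 TPM, Ruvbl1 at 4.21 and 3.52, Ruvbl2 at 4.16 and 4.32, and Nbas at 2.36 and 3.63. None of the 8 eligible NMD factors was a member. Smg6, which was not eligible, had NMD shares of 15.6% and 15.9% in the alignment-based tables and of 1.045% and 1.109% in the read-based ones. Smg1 had a read-based NMD share of 18.3% and 18.7% where the alignment-based tables listed 0.

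Genes of the exon junction complex and its partners had a median of 13.7 TPM in replicate 1 and 10.2 TPM in replicate 2. The core helicase Eif4a3 was at 27.3 and 27.6 TPM, Magoh at 21.2 and 16.5, Rbm8a at 9.36 and 7.87, and Casc3 at 6.76 and 6.71. The peripheral proteins Rnps1, Acin1, Sap18 and Pnn were at 20.2 and 17.7, at 18.5 and 20.97, at 17.97 and 12.5, and at 4.18 and 5.06 TPM, and the disassembly factor Pym1 was at 7.85 and 6.60. None of the 9 eligible genes was a member, and the nearest was Magohb (5.78 and 5.94 TPM), with NMD shares of 25.3% and 27.9%.

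Beside the 1.55% of all eligible genes that met the rule, nothing particular to a list is read from these counts. Members were 1 of 17 eligible SR and Tra2 splicing factors (Srsf2), 2 of 44 hnRNP and other RNA-binding proteins (Hnrnpu and Hnrnpdl), 2 of 48 spliceosome genes, 2 of 42 translation factors (Eef1b2 and Eif4a2), 3 of 53 interferon-stimulated genes, 2 of 78 respiratory chain genes and 2 of 83 ribosomal proteins. There were 0 members among 67 lipid A response genes, 61 lysosomal genes, 28 macrophage identity genes and 20 stress response genes known as decay targets. The median NMD share over the eligible genes of the SR and Tra2 list was 6.16%, while it was 0.12% over the hnRNP list and 0 over each other list. Over all eligible genes the median was also 0. Among SR genes chosen after their values were seen, Srsf3 had NMD shares of 27.1% and 18.5% and Tra2b of 14.3% and 13.1%.

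At the threshold of the rule, Elk4 (41.0% and 41.6%), Zranb2 (41.4% and 45.7%) and Mboat7 (46.6% and 41.5%) were just inside. Just outside were Dnajc15 (52.7% and 39.96%), Myo7a (39.8% and 42.1%) and Dnajc5 (39.6% and 40.1%). In all, 14 genes met the share in replicate 1 only and 14 in replicate 2 only, these 3 included.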

How the data were processed

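Total RNA of the cytosolic fraction was measured in 2 libraries of 1 group. Each library has alignment-based tables of genes and of transcripts and a read-based table of transcripts, and the text deposited beside them names mm10 and GENCODE M21. Aligner, quantifiers and strandedness were not given in the sources used here. The authors deposited expected counts as unscaled estimates for each feature. The deposited TPM values correct for effective length and add up to a fixed sum over the features of a table. The deposited percent column relates a transcript's TPM to that of its gene, per the file headers.

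NMD shares were summed from these percents over transcripts whose biotype in the read-based table is nonsense-mediated decay. Structures, coordinates and sequences came from the GENCODE M21 annotation and transcripts. A 31-base word was counted as shared when a transcript of another gene holds it. The leading transcript of a class is the one with the highest share of its gene over both replicates. For scaling, expected counts were rounded to integers and used in edgeR 4.0.16 and DESeq2 1.42.0 (R 4.3.3), and no test was fitted. Other steps used Python 3.11.15 and pandas 2.3.3, and the rule was tested on simulated data. Errors over 2 replicates measure only the spread between these samples.

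Members and gene lists were chosen with earlier results of these data known, and roles were assigned after the members were seen. Genes named by rule were the 15 highest members by level, the 10 highest by share, list members, the 5 largest replicate ratios, the 3 members and 3 other genes nearest the threshold, the 5 lowest read-based shares, and every NMD factor and exon junction gene. Some genes and sequences that this rule allows are not reported here. Shares by expected counts, other thresholds, other scalings and left-out replicates were tried as alternatives.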

Additional observations from a re-analysis of the deposited data

How the results depend on the processing

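Of 36 alternative values for 6 results, 22 stayed within 1.5-fold of a count or within 1 SD of a value. Some of these 22 could not have moved. A median with a replicate left out always lies within 1 SD, since mean and SD came from the same replicates. A minimum NMD expected count of 10 could not change the 83, as the lowest count was 68.2. The 83 members became 146 at a minimum TPM of 1, 55 at a minimum TPM of 10, 136 when the TPM was rescaled to protein-coding genes, and 141 at a minimum NMD share of 30%. Leaving out a replicate gave 100 to 108 members, and the read-based table gave 103, of which 67 were shared with the 83. Asking that the leading NMD transcript hold a 31-base word of its own left 67, and asking that at most 50% of its words occur in other genes left 75, both chosen after seeing the data. The median member level of 14.1 TPM was 15.9 at a minimum share of 50%, 7.70 in the read-based table and 50.2 with TPM rescaled to protein-coding genes. The median NMD share of 56.5% was 47.7% at a minimum share of 30%, 61.3% at 50%, 58.8% in the read-based table and 51.9% by expected counts. The 1 member at least 2-fold apart between replicates (Rgs1) became 2 with expected counts scaled by size factors, which adds Il4ra, and 5 in the read-based table, among them Lilr4b, Eef1b2 and Prdx6. The median level of NMD factors, 5.10 TPM, was 2.52 in the read-based table. The cause of these moves was not tested beyond the thresholds and scales that define them. Leave-one-out medians ranged from 12.9 to 15.3 TPM for member level, from 55.3% to 57.7% for NMD share and from 5.09 to 5.10 TPM for NMD factors, and 70 members kept a read-based share of at least 40% in either replicate alone. No paired analysis was possible because the series has 1 group. The lowest NMD expected count of a member was 68.2, in Ggct, and whether depth limits the split between isoforms was not tested.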

Other observations

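In the read-based tables an NMD share of at least 40% in both replicates was also reached by 36 eligible genes that are not members. The highest in level, named after their values were seen, were Aup1, an endoplasmic reticulum and lipid droplet protein (120.0 TPM in replicate 1 and 94.6 TPM in replicate 2), with read-based shares of 40.6% and 51.0%, and the ribosomal protein Rpl12 (116 and 66.4 TPM), with 72.8% and 66.9%. The small GTPase Arf4 (76.1 and 59.3 TPM) had read-based shares of 63.0% and 57.2% beside alignment-based shares of 38.0% and 26.1%. Ankfy1, an endosomal protein at 22.7 and 23.7 TPM, had read-based shares of 76.6% and 74.7% beside 4.12% and 3.41%. The splicing factor Srsf6 (11.2 and 10.9 TPM) had read-based shares of 50.7% and 52.0% beside 6.28% and 11.0%, and the antiviral synthetase Oas1g (34.2 and 33.4 TPM) had 62.5% and 60.5% beside 30.5% and 31.5%.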
